A study of Bos taurus with 12 samples.

Results

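The loci described here are those that were abundant in fertilised bovine embryos at the 8-cell stage and all but absent from fetal fibroblasts, with at least some signal in both groups of cloned embryos. They were chosen by their measured level in FPKM (sequenced fragments per unit of transcript length, relative to all mapped fragments of the library): at least 100 in the embryos from in vitro fertilisation (IVF), under 0.1 in fibroblasts, and at least 1 in each group of cloned embryos. The rule found 125 of 22445 loci in the table. Of these, 99 were listed at 0 in fibroblasts and the other 26 at up to 0.09 FPKM. A fibroblast level under 0.1 was found for 33.7% of all loci and for 11.6% of the 1082 loci at 100 FPKM or more in IVF embryos. Since these 4 levels chose the loci, the values below are a description, and no test is given for them.

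All samples were of Holstein cattle, with 3 libraries in each of 4 groups. The first group was bovine fetal fibroblasts (BFF) with no treatment given, which the labels list under SCNT embryos without calling them the donor cells. The others were pools of 8 embryos with 8 cells each: IVF embryos, embryos made by somatic cell nuclear transfer (SCNT), and SCNT embryos with KDM5B overexpression, whose means of delivery the labels do not state. The deposited table held 1 mean per group and locus, so no spread between libraries, p-value or depth could be had for any locus, and each difference below is between group means without a replicate check. Labels and values do not show whether the libraries of a group came from separate collections. The sources conflict on the instrument: the design text puts fibroblasts on another one than embryos, while the protocol in the labels names a single one for all samples. Embryo cDNA was amplified from lysed embryos, and amplification is not described for fibroblasts. If fibroblasts were handled otherwise, cell type and method cannot be told apart where a locus is called absent from them. The table names loci by Ensembl gene ID or by the authors' own number, and these could not be paired with gene symbols here. Marker genes of embryos or fibroblasts could therefore not be looked up to check the group labels.

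As background, an early cattle embryo lives at first on RNA and protein that the oocyte stored, and its own genome is switched on in a main wave at about the stage sampled here. RNA that is abundant at this stage and missing from a body cell can thus be left from the oocyte, newly made by the embryo, or both. In nuclear transfer the egg cytoplasm brings the stored RNA, while the nucleus comes from a body cell in which oocyte and embryo genes are shut. KDM5B is a histone demethylase that acts on methylated lysine 4 of histone H3, which marks active promoters.

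In IVF embryos the 125 loci ranged from 102 to 24421 FPKM, with a median of 231 and quartiles of 145 and 412. The level was very uneven: 14 loci stood at 1000 FPKM or more, and 4 loci together made up more than 50% of the summed level. The highest, ENSBTAG00000034346.2, was listed at 0 in fibroblasts, 24421 FPKM in IVF, 5808 in SCNT and 5529 in SCNT with KDM5B. It ranked 2nd of all loci in IVF embryos, 14th in SCNT and 16th in SCNT with KDM5B. ENSBTAG00000027348.3 was listed at 0 in fibroblasts and at 11949 FPKM in IVF, 2414 in SCNT and 1633 with KDM5B. Both of the top loci were thus several times lower in either clone group than in IVF embryos, and the second was lower still with KDM5B.

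The locus with the third highest IVF level went the other way. ENSBTAG00000039870.2 was listed at 0 in fibroblasts, 7187 FPKM in IVF, 13790 in SCNT and 15726 in SCNT with KDM5B, which made it the largest of the 125 in both clone groups and the 5th and 4th highest locus of those columns. ENSBTAG00000046609.1 stood at 0.0133 FPKM in fibroblasts, 5584 in IVF, 1590 in SCNT and 1654 with KDM5B. ENSBTAG00000038232.2 stood at 0.03, 2305, 509 and 780 FPKM in the same order of groups. These last loci were again lower in both clone groups, with little difference between the clone groups in the first and a higher KDM5B value in the second. Over the 4 columns, on the log2(FPKM + 1) scale, the levels nearest to those of ENSBTAG00000034346.2 were those of ENSBTAG00000027348.3, at a Euclidean distance of 2.40. Next came ENSBTAG00000039870.2 at 2.63 and ENSBTAG00000046609.1 at 3.32. This distance depends on how high a locus stands as well as on its direction between groups. ENSBTAG00000039870.2 was near by it although it was higher in clones than in IVF.

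The next levels showed how differently abundant embryo loci stood in the clone groups. ENSBTAG00000009197.5 was listed at 0 in fibroblasts, 2027 FPKM in IVF, 145 in SCNT and 530 with KDM5B. ENSBTAG00000045940.1, also listed at 0 in fibroblasts, stood at 1862 FPKM in IVF and, in clones, at 3763 in SCNT and 3548 with KDM5B. ENSBTAG00000047612.1, again listed at 0 in fibroblasts, stood at 1783 FPKM in IVF and, in clones, at 505 in SCNT and 1925 with KDM5B. The first was low in both clone groups, the second was higher in both, and the third was low in SCNT embryos alone.

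**Figure D1:**
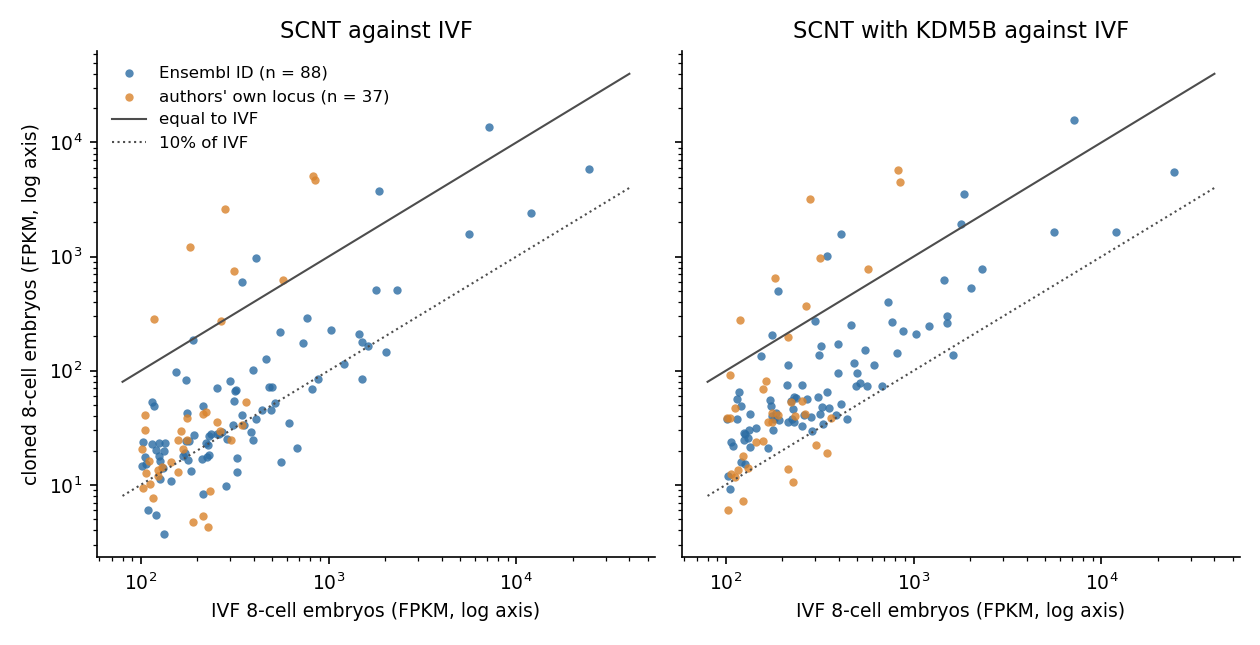
Each point is 1 of the 125 loci, with its group mean in IVF embryos on the horizontal axis and in SCNT embryos (left) or SCNT embryos with KDM5B (right) on the vertical axis, both in FPKM on log axes. Colours separate 88 Ensembl IDs from 37 of the authors' own loci, the solid line marks equal levels and the dotted line 10% of IVF. Most points lie between the lines or, in SCNT embryos, also under the dotted one, while 12 points on the left and 15 on the right lie above the solid line.

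The first comparison asked how much of the IVF level cloned embryos held. In SCNT embryos the median locus held 13.4% of its IVF level, with quartiles of 9.15% and 22.7%. The share was under 10% for 41 loci, from 10% to 25% for 57, from 25% to 50% for 13 and from 50% to 100% for 2, and 12 loci stood above IVF. On the log2(FPKM + 1) scale 111 of the 125 loci were lower in SCNT by at least 2-fold against IVF and 8 were higher by that much, where 36.7% and 23.3% of the 14836 loci at 1 FPKM or more in an embryo group were. Any SCNT value above IVF was found for 41.7% of these loci. The median difference was -2.85 on that scale for the 125 loci and -0.45 for all 14836. The rule picked loci for a high IVF value, and a lower value elsewhere is partly built into such a choice, so nothing is read from these counts. FPKM are relative to the total of a library, and in pooled embryos fewer cells with a transcript and less of it per cell cannot be told apart.

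In SCNT embryos with KDM5B the median locus held 21.7% of its IVF level, with quartiles of 14.8% and 41.0%. The share was under 10% for 9 loci, from 10% to 25% for 68, from 25% to 50% for 24, from 50% to 100% for 9 and above 100% for 15, where 45.3% of all 14836 loci were above IVF. At least 2-fold lower than in IVF were 100 loci and at least 2-fold higher were 10, against 31.2% and 25.9% of all 14836 loci. This comparison shares the IVF column with the one before. The median level was 231 FPKM in IVF, 29.6 in SCNT and 53.7 in SCNT with KDM5B. The rule put all 125 loci at 100 FPKM or more in IVF, and 29 reached it in SCNT and 41 with KDM5B. Over all 14836 loci 1082 reached 100 FPKM in IVF, 1174 in SCNT and 1229 with KDM5B. The order of the loci was partly kept, with a Spearman's rho over the 125 loci of 0.66 between IVF and SCNT, 0.69 between IVF and SCNT with KDM5B, and 0.86 between the clone groups. These are across loci of single columns, each from its own embryo pools, and not across replicates.

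The loci named here as holding least in SCNT embryos were all listed at 0 in fibroblasts, as were 99 of all 125. BGI_novel_G002861, one of the authors' own loci, stood at 227 FPKM in IVF and, in clones, at 4.27 in SCNT and 10.5 with KDM5B, which is 1.88% and 4.64% of IVF. BGI_novel_G002857 stood at 214, 5.29 and 13.9 FPKM in the same order, or 2.47% and 6.48% of IVF. Both were among the 9 loci under 10% with KDM5B. The lowest shares among Ensembl IDs were 2.78% for ENSBTAG00000009653.4, at 132 FPKM in IVF, 3.68 in SCNT and 30.2 with KDM5B, and 2.83% for ENSBTAG00000037881.1, at 562, 15.9 and 73.9 FPKM. The KDM5B value of ENSBTAG00000037881.1 was identical, to the digits deposited, to that of ENSBTAG00000001812.5, whose IVF and SCNT values were 676 and 21.0 FPKM. Whether reads were split between these 2 loci cannot be read from the table, so their values may not be independent.

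**Figure D2:**
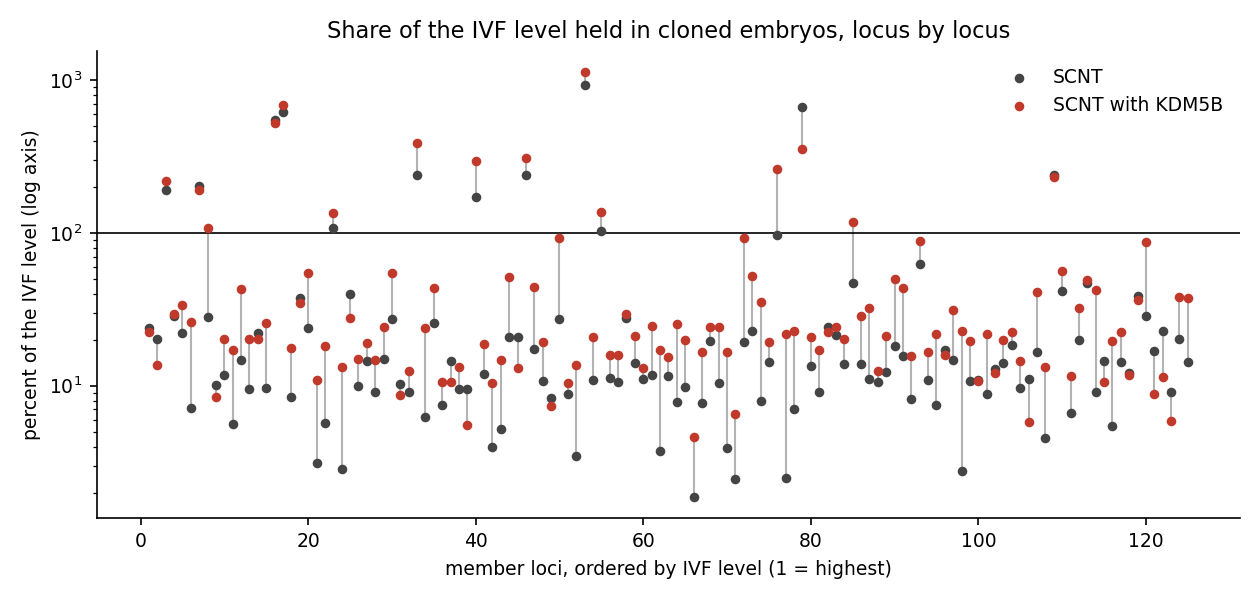
For each of the 125 loci, in order of IVF level, the points give the percent of its IVF level in SCNT embryos (dark) and in SCNT embryos with KDM5B (red), joined by a line, on a log axis. The red point lies above the dark one for 99 loci, and the loci above the line at 100% lie between the ranks of 3 and 109 in IVF level.

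A minority of the loci was more abundant in clones than in IVF embryos. The 12 loci above IVF in SCNT embryos were all listed at 0 in fibroblasts, as were 99 of all 125. Of the 12, 8 were the authors' own loci. The largest share was that of BGI_novel_G003788, at 281 FPKM in IVF, 2621 after SCNT and 3181 with KDM5B, or 9.32 and 11.3 times the IVF level. BGI_novel_G001655 stood at 182 FPKM in IVF and, in clones, at 1209 in SCNT and 647 with KDM5B, or 6.63 and 3.55 times. In absolute level BGI_novel_G003846 was the largest of the authors' own loci in both clone groups, at 829 FPKM in IVF, 5128 in SCNT and 5699 with KDM5B. These 3 loci were thus far higher in either clone group than in IVF, and the KDM5B value was above the SCNT value in 2 of them. Among the 4 Ensembl IDs of the 12, the highest share was that of ENSBTAG00000007477.5, at 409 FPKM in IVF, 973 in SCNT and 1589 with KDM5B.

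The 12 loci set the sums of the clone groups. They made up 13.8% of the summed IVF level of the 125 loci, 68.7% of the summed SCNT level and 64.8% of the sum with KDM5B. Summed over all 125, SCNT embryos held 52.8% of the IVF level and SCNT embryos with KDM5B 61.8% (72.4% and 74.2% with columns centred). Centring took each locus's log2(FPKM + 1) difference from its own mean over the embryo groups. Each embryo column was then shifted by the median of these differences over the 14836 loci at 1 FPKM or more in an embryo group. For the 113 loci not above IVF in SCNT embryos, the deposited sums held were 19.2% and 25.2%. These 113 were picked by a low SCNT value, and the figures serve only to show how the total is made up.

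The share of each group's summed FPKM taken by the 125 loci was 12.4% in IVF embryos, 5.71% in SCNT embryos, 6.66% in SCNT embryos with KDM5B and 0.000148% in fibroblasts. The summed FPKM of all loci was 774679, 885032, 887410 and 528618 in the same order. A single locus outside the 125, ENSBTAG00000038488.2, at 94337 FPKM in IVF embryos, took 12.2% of the IVF total but 3.46% and 2.45% of the clone totals. With it left out of the totals, an alternative that was not planned beforehand, the 125 loci took 14.1%, 5.91% and 6.83%. Of the 100 highest loci of a column, 15 were among the 125 in IVF embryos, 8 in SCNT embryos and 10 with KDM5B.

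Within these shares the makeup differed between groups. ENSBTAG00000034346.2 alone took 3.15% of the IVF total, 0.656% of the SCNT total and 0.623% with KDM5B. ENSBTAG00000039870.2 took 0.928%, 1.56% and 1.77% in the same order. The 85 Ensembl IDs below the top 3 took 5.62% of the IVF total, 1.39% of the SCNT total and 2.10% with KDM5B. The authors' own loci took 1.11%, 1.83% and 1.98%. Of these shares, the 8 that stood above IVF in SCNT embryos took 0.441%, 1.76% and 1.85%, and the other 29 took 0.673%, 0.0722% and 0.129%. Without the 3 loci highest in IVF the remaining 122 took 6.73%, 3.22% and 4.08%.

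**Figure D3:**
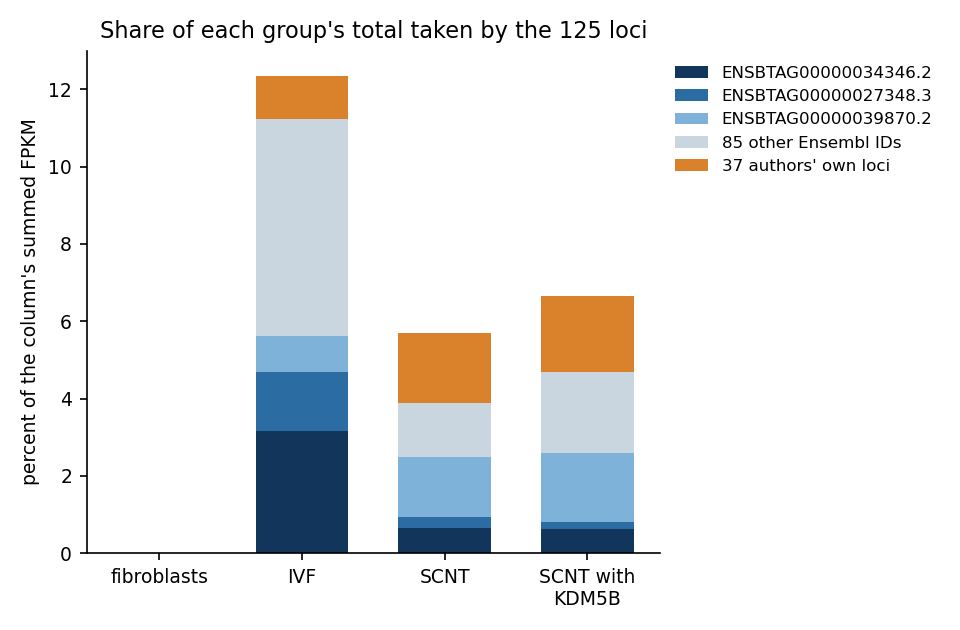
Bars give the percent of each group's summed FPKM taken by the 125 loci, split into the 3 loci highest in IVF embryos, the 85 other Ensembl IDs and the 37 authors' own loci. The bar of fibroblasts is too low to see, and the clone bars are higher than the IVF bar in the authors' own loci as a set and in ENSBTAG00000039870.2, and lower in the other parts.

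The next comparison set the clone groups against each other. The KDM5B mean lay above the SCNT mean for 99 of the 125 loci and below it for 26, where it lay above for 64.8% of all 14836 loci. The median ratio of FPKM was 1.63, with quartiles of 1.14 and 2.60. On the log2(FPKM + 1) scale 47 loci (37.6%) were at least 2-fold higher with KDM5B, against 6.46% of all loci, and 0 were at least 2-fold lower, against 1.81%. The median difference was 0.69 for the 125 loci and 0.18 for all loci. With columns centred as above, 37 loci were at least 2-fold higher and 4 lower, where 3.50% and 3.34% of all loci were. The 4 (3.2%) thus lay at the share of all loci. The median was then 0.50 against -0.01 for all loci. Summed over the 125 loci the KDM5B level as deposited was 1.17 times the SCNT level, less than the median ratio. With columns centred the sums lay closer together, at 72.4% of IVF in SCNT and 74.2% with KDM5B. As deposited they were 52.8% and 61.8%. In the deposited values the 3 loci highest in IVF had ratios of 0.952, 0.676 and 1.14, and without them the ratio of the sums was 1.27. The 12 loci above IVF in SCNT embryos had a ratio of sums of 1.10. These 12 were picked by a high SCNT value, which is the divisor here, so a low ratio is partly built in.

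The pairs of loci with the highest and the lowest KDM5B to SCNT ratios were below the median SCNT level of 29.6 FPKM. SCNT is the divisor, so a high ratio at a low SCNT level is partly built in. BGI_novel_G001223, with a ratio of 4.79, stood above that median, at 41.4 FPKM in SCNT. BGI_novel_G000847 was listed at 0 in fibroblasts and stood at 189 FPKM in IVF and, in clones, at 4.69 in SCNT and 41.0 with KDM5B, a ratio of 8.74 between the clone groups. ENSBTAG00000009653.4, with the values given above, had a ratio of 8.20. At the other end ENSBTAG00000047818.1 stood at 0.00667 FPKM in fibroblasts, 103 in IVF, 23.5 in SCNT and 11.9 with KDM5B, a ratio of 0.505. ENSBTAG00000025183.3 stood at 0.0233, 105, 17.7 and 9.28 FPKM in the same groups, a ratio of 0.525. The upper pair differed by far more than the lower pair, and neither has a replicate value to set the difference against.

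Loci of a similar SCNT level but with fibroblast signal stood closer to equal in the clone groups. Between 10 and 100 FPKM in SCNT embryos the KDM5B to SCNT ratio had a median of 1.63 in 85 of the 125 loci and of 1.07 in 3368 loci at 0.1 FPKM or more in fibroblasts, and 37.6% and 4.33% of them were at least 2-fold higher with KDM5B. In the same range, 268 other loci under 0.1 FPKM in fibroblasts had a median ratio of 1.13, and 5.97% were at least 2-fold higher. Those 268 loci had a median IVF level of 2.99 FPKM, against 212 for the 85. This band of SCNT levels was chosen after seeing the data, and with 1 value per group the difference between the sets could not be tested.

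**Figure D4:**
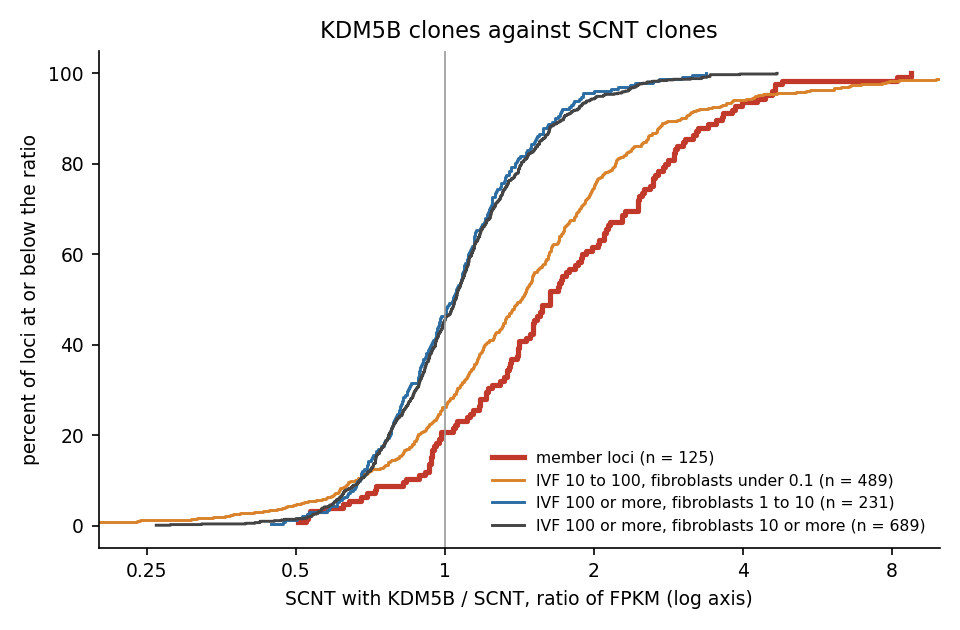
Curves give the percent of loci (vertical axis) at or below a ratio of FPKM between SCNT embryos with KDM5B and SCNT embryos (log axis), for the 125 loci and 3 other sets named in the legend; 2 loci listed at 0 in SCNT embryos have no ratio and are left out of their set, and ratios beyond the axis are not shown. The curve of the 125 loci lies furthest to the right around its median of 1.63, next to that of loci at 10 to 100 FPKM in IVF and under 0.1 in fibroblasts, and the 2 sets with fibroblast signal cross 50% close to 1.

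The 125 loci were then set beside other loci of the same abundance in IVF embryos. Among loci at 100 FPKM or more in IVF, the median share of the IVF level in SCNT embryos was 13.4% for the 125 loci, 19.8% for 36 loci at 0.1 to 1 FPKM in fibroblasts, 32.7% for 231 loci at 1 to 10, and 77.2% for 689 loci at 10 or more. With KDM5B the medians were 21.7%, 26.4%, 34.2% and 78.9%. Both sets of medians rank in the order of the fibroblast level. At least 2-fold lower in SCNT than in IVF were 27 of 36, 154 of 231 and 256 of 689 loci of the other sets (66.7% and 37.2% in the larger 2), against 111 of 125 (88.8%). The KDM5B to SCNT ratio had medians of 1.63, 1.25, 1.04 and 1.05 in the 4 sets. All 4 sets share the choice of a high IVF value and were split by the fibroblast column, on whose instrument the sources conflict, and the ranking was not tested.

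Loci under the same fibroblast limit but less abundant in IVF embryos had similar median shares and different sums. In 491 loci at 10 to 100 FPKM in IVF the median share held was 14.8% in SCNT embryos and 21.4% with KDM5B, and in 1954 loci at 1 to 10 FPKM it was 15.2% and 21.5%. Summed over loci, the 491 held 115% of IVF in SCNT embryos and 96.7% with KDM5B, and the 1954 held 107% and 118%, against 52.8% and 61.8% for the 125. The KDM5B to SCNT ratio had medians of 1.43 and 1.33 in these sets. At least 2-fold higher with KDM5B were 15.9% and 4.81% of them on the log2(FPKM + 1) scale, which understates differences of low loci. Within the 125 the share held did not move steadily with abundance: its median in SCNT embryos was 14.2% for 51 loci at 100 to 200 FPKM in IVF, 10.8% for 47 at 200 to 500, 14.4% for 13 at 500 to 1000 and 21.1% for 14 at 1000 or more.

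**Figure D5:**
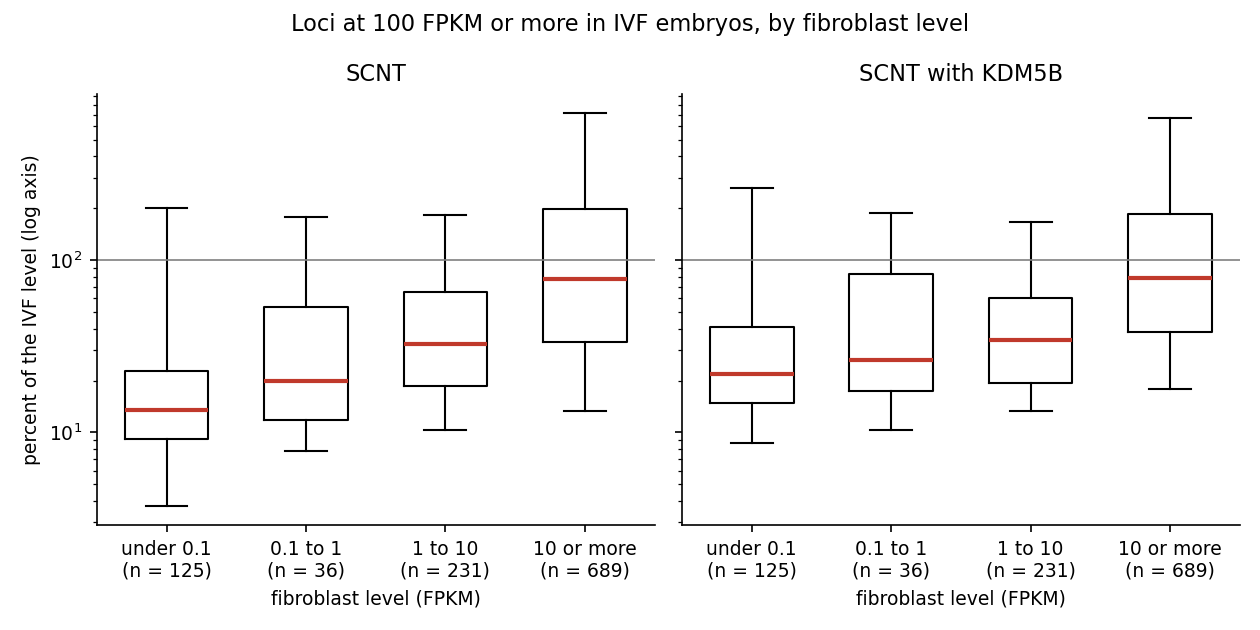
Boxes give the percent of the IVF level (log axis) in SCNT embryos (left) and SCNT embryos with KDM5B (right) for loci at 100 FPKM or more in IVF, by fibroblast level, with the median in red, quartiles as box ends and whiskers from the 5th to the 95th percentile of loci. The medians go from 13.4% to 77.2% on the left and from 21.7% to 78.9% on the right as the fibroblast level goes up.

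By locus type, 88 of the 125 were Ensembl IDs and 37 (29.6%) were the authors' own loci, which made up 21.4% of the whole table. Among loci at 100 FPKM or more in IVF and 0.1 or more in fibroblasts the authors' own loci were 3.35%, and among those at 10 to 100 in IVF and under 0.1 in fibroblasts they were 32.2%. The authors' own members were of moderate level in IVF, at up to 850 FPKM with a median of 176, against 286 for the Ensembl IDs, and none was among the 14 at 1000 or more. They made up 9.02% of the summed IVF level of the 125 loci, 32.1% of the SCNT sum and 29.7% of the sum with KDM5B. The median share held was close in both types, at 14.1% of IVF in SCNT embryos for the authors' own loci and 12.3% for Ensembl IDs, and 21.3% and 21.7% with KDM5B. The sums went apart, since the authors' own loci held 188% of their IVF sum in SCNT embryos and 203% with KDM5B, and the Ensembl IDs 39.4% and 47.7%. The median KDM5B to SCNT ratio was 1.34 in the authors' own loci and 1.75 in Ensembl IDs, and 9 of 37 (24.3%) and 38 of 88 (43.2%) were at least 2-fold higher with KDM5B, where 7.66% of the 3524 authors' own loci and 6.09% of the 11312 Ensembl IDs among the 14836 loci were.

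Some of the authors' own loci carried numbers next to each other. Of the 37, 14 fell into 5 runs in which each number was within 3 of the next, in a table of 4802 such loci numbered from 1 to 4872. What the numbers follow is not given in the sources used here, so loci of a run may or may not be neighbours or pieces of 1 transcript. In the run from BGI_novel_G001655 to BGI_novel_G001658 all 3 loci stood above IVF in SCNT embryos, at 239% to 663%. In the run from BGI_novel_G003396 to BGI_novel_G003399 the 3 loci held 9.16% to 12.1%, and their KDM5B to SCNT ratios were all below 1, at 0.575 to 0.972. In the run from BGI_novel_G002861 to BGI_novel_G002863 the shares in SCNT embryos were 1.88% to 9.06%, and the pair BGI_novel_G001061 and BGI_novel_G001062 held 15.7% and 18.1%, with ratios of 2.79 and 2.76. The run from BGI_novel_G001491 to BGI_novel_G001493 was mixed, with 19.7% in the first locus and 108% and 103% in the others. Where members of a run are alike they may count 1 source more than once.

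At the limits of the rule the values were continuous. Just inside the IVF limit the 5 lowest loci stood at 102 to 105 FPKM, and just outside it the 5 highest stood at 94.1 to 99.9 FPKM and held 11.8% to 46.6% of IVF in SCNT embryos. Just inside the fibroblast limit 5 loci stood at 0.05 to 0.09 FPKM, and just outside it 5 stood at 0.1 to 0.137 FPKM and held 7.55% to 23.4%. The floor of 1 FPKM in the clone groups left out 1 locus, BGI_novel_G001648, at 130 FPKM in IVF, 0.663 in SCNT and 4.02 with KDM5B. The lowest clone value kept was 3.68 FPKM, so the floor lay below all members.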

How the data were processed

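The authors deposited 1 table of FPKM with 1 column per group. Per the submitters' processing notes, the tools were RSEM 1.2.12, StringTie 1.0.4, HISAT 0.1.6, Bowtie2 2.2.5 and bcl2fastq 2.16, with no role given, and the build was UMD3.1. Annotation and filters: not given in the sources used here. A column was taken for the mean of its 3 libraries, since at least 99.9955% of each column are multiples of 0.01 divided by 3 (tolerance 0.001 on the value times 300).

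Loci were chosen by the rule in the opening. Shares, ratios and sums use FPKM as deposited, and 2-fold calls use log2(FPKM + 1) over 14836 loci at 1 FPKM or more in an embryo group. Tests across libraries were not possible with 1 value per group. Members, comparison sets and the rule for named loci were chosen with earlier results of these data known. Loci were named by IVF level, by share held in SCNT, by KDM5B to SCNT ratio or by nearness to a limit. The RefSeq gene table (assembly ARS-UCD2.0) has 0 Ensembl IDs among its 37063 entries, so the 17643 Ensembl IDs could not be looked up and the fixed gene lists were not used. The counting code was tested on simulated data. Alternatives were other limits, scalings, pseudocounts, folds and locus types. Python 3.11.15, numpy 2.4.6, pandas 2.3.3 and matplotlib 3.10.9 were used.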

Additional observations from a re-analysis of the deposited data

How the results depend on the processing

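Under 18 alternatives 241 values were recomputed, of which 204 differed from the reported ones by no more than 1.5 times. The median shares held stayed within that range under every alternative run for them. Members numbered 198 with an IVF limit of 50 FPKM and 74 with 200. At 50, 173 (SCNT) and 161 (KDM5B) were at least 2-fold lower than IVF, and with KDM5B 157 lay above SCNT, 41 below and 2 at least 2-fold lower. At 200 these were 64 and 57, and with KDM5B 61 above, 13 below and 29 at least 2-fold higher. Loci at least 2-fold lower with KDM5B than SCNT numbered 4 with columns centred and 3 after quantile normalization, at about the share of all loci (3.34% and 2.99%), and the cause was not tested. Quantile normalization left 4 (SCNT) and 6 (KDM5B) at least 2-fold above IVF, against 26.9% and 26.2% of all loci. A limit of 4-fold left 4 and 3 above IVF, and 7 higher with KDM5B than SCNT. The share of all loci was not computed at 4-fold, so nothing is read from those counts. Ensembl IDs alone gave 2 (SCNT) and 4 (KDM5B) at least 2-fold above IVF, against 23.3% and 25.7% of the 11312 such loci. By any size, 4 and 7 of the 88 members with Ensembl IDs lay above IVF, where 4649 and 5022 of the 11312 did. With KDM5B 14 of the 88 lay below SCNT, where 3873 of the 11312 did. The authors' own loci alone gave 29 (SCNT) and 26 (KDM5B) at least 2-fold lower than IVF, against 34.7% and 29.6% of the 3524 such loci. With KDM5B 6 were at least 2-fold higher than IVF, against 26.6%. Against SCNT, 9 were at least 2-fold higher with KDM5B, where 7.66% of the 3524 were. By any size 25 (67.6%) lay above and 12 below, near the 62.3% of the 3524 that lay above. The median log2 difference was 0.42. Their sums were 188% and 203% of IVF (8 of these 37 loci held 455% in SCNT embryos and the other 29 held 12.3%). They took 1.11%, 1.83% and 1.98% of the totals. Without the 3 largest members, chosen as an alternative after the values were seen, the shares of the totals were 6.73%, 3.22% and 4.08%. No paired analysis was possible because each group has 1 mean and no values by replicate number, and leaving out a replicate could not be run either. Shares of the totals were not recomputed with columns centred. Depth is unknown.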
